A study of Mus musculus with 12 samples.

Results

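Immediate early genes were followed in the RNA of PreMegEs, the bone marrow progenitors that give rise to megakaryocytes and erythroid cells. The set held 40 genes of the 41128 in the count table, named from general knowledge of the early response and found by gene symbol, each of which matched 1 row. The 40 genes were selected on these data: they were proposed after replicate 2 of the P2- and of the P2+ PreMegEs had been seen to lie above the other 10 libraries, and after P2+ had been set against P2- within each replicate, so both of these patterns are described here without a test. There were 4 groups of 3 libraries, and each library was made from the pooled marrow of 3 C57BL/6 mice aged 12 to 16 weeks. The methods name both males and females, without the sex of a given pool. WT PreMegEs came from wild type mice and were not split further. P2- and P2+ PreMegEs came from Runx1 P1-GFP::P2-hCD4/+ mice, in which GFP and human CD4 report the distal (P1) and proximal (P2) promoters of Runx1 from 1 allele, and were parted by the absence or presence of hCD4 at the surface. RUNX1C KO PreMegEs came from mice labelled as RUNX1C knockout, which lack the isoform made from P1. All cells were sorted from flushed marrow after depletion of cells with markers of mature blood lineages, which the PreMegE gate also leaves out. Strand-specific poly(A) libraries were counted per gene. Levels are given as CPM, the counts of a gene scaled to a common library size with the TMM method of edgeR. The tests compare libraries of pooled mice, so that p-values measure the spread between these pools.

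Immediate early genes are transcribed within minutes of a growth factor, cytokine or stress signal, with no need of new protein. MAP kinases, SRF with its partners, CREB and NF-kB carry the signal to promoters that are already open, and most of the transcripts are short-lived. Many of the products are transcription factors (Fos, Jun, Egr, Nr4a and Klf proteins), and others switch the signal off again by removing phosphates from MAP kinases (Dusp proteins), by holding NF-kB in the cytoplasm (Nfkbia) or by degrading mRNAs (Zfp36). In hematopoietic cells they are part of the response to cytokine receptors.

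The libraries held between 10726098 and 14445026 counts, and 3 counts, the limit that a count of 0 allows, came to between 0.207 and 0.288 CPM (counting error only). Runx1, counted over the transcripts of both promoters, had between 341 and 381 CPM in the RUNX1C KO and between 357 and 387 CPM in the WT libraries, which does not check the loss of 1 isoform. The 10 PreMegE markers were all detected in each library, with a summed level of between 3571 and 4327 CPM. Replicate 2 of P2- and of P2+ stood apart from the other libraries in several ways. Xist, the RNA of the silenced X chromosome of females, was at 0 and 5.18 CPM in them and between 713 and 2730 CPM in the other 10, and Ddx3y, a gene of the Y chromosome, was at 106 and 71.5 CPM against 0 to 70.8. The sex of the mice is not given in the labels. Of the 12 measured neutrophil and monocyte markers, 5 were higher in both than in any other library (Ngp, at 41.97 and 30.9 CPM against at most 4.02, with S100a8, S100a9, Ltf and Camp), while the summed level of the list of 14 was 168 and 337 CPM in these 2 libraries and between 66.8 and 437 CPM in the others, and Ly6g, which defines neutrophils, was at 0.192 and 0.345 CPM in them and at 0 in the others. Of the other lists, 1 of 4 measured macrophage markers (Cd68) and none of the measured lymphoid, mast cell, endothelial and PreMegE markers was above in both. The part of the sex or of these cells in the results below was not tested. In such bulk libraries more cells with a transcript and more transcript per cell cannot be told apart.

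Promoters show what the members share in sequence. RefSeq promoters on GRCm38.p6 (250 bases before to 50 after a start site) were at hand for 32 of the 40 genes, and Cd69, Cyr61, Egr1, Egr3, Fosl1, Hes1, Ier2 and Nfkbiz had no entry. Of the 32, the 4 with the largest ratio between the lower of the replicate 2 libraries of P2- and P2+ and the highest of the other 10 are shown, followed by Fosl2, the AP-1 subunit with an entry and the smallest ratio. Sequences run 5′ to 3′ on the strand of the gene, and capitals mark every match to the motifs named after them, on either strand (CGTCA is TGACG on the other strand). They lie at chr1:191183284-191183583 (minus strand, Atf3), chr10:67535249-67535548 (plus strand, Egr2, 1 of 5 listed starts), chr15:101266596-101266895 (plus strand, Nr4a1), chr7:19309996-19310295 (minus strand, Fosb) and chr5:32136222-32136521 (plus strand, Fosl2).
Atf3: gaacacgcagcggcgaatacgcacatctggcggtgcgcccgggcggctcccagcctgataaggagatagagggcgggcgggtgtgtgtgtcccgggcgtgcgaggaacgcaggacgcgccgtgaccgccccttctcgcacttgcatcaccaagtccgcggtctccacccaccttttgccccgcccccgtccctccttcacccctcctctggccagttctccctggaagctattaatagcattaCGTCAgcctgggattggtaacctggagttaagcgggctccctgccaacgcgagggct
Egr2: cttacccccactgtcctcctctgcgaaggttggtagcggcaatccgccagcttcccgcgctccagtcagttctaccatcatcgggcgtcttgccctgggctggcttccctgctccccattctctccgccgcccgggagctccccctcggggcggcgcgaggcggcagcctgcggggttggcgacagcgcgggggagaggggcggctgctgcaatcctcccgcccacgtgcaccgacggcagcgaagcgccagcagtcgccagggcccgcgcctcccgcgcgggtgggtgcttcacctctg
Nr4a1: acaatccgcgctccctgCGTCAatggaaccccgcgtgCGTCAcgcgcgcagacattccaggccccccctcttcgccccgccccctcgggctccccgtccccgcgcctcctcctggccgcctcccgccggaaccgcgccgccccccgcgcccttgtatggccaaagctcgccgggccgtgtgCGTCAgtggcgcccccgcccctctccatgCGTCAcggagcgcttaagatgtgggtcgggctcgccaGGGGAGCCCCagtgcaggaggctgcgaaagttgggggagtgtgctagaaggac
Fosb: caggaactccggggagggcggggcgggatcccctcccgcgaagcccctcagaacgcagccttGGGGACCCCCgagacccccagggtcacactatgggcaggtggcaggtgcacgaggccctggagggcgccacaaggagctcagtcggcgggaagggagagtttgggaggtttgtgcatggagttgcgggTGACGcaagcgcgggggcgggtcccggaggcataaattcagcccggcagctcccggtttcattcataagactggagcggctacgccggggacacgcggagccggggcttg
Fosl2: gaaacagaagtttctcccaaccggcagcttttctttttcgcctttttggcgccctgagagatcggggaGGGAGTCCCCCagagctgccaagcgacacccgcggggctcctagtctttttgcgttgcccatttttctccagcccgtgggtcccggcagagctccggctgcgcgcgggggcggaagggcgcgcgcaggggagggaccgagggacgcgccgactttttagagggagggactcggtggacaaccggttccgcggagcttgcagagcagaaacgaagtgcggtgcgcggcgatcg

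The motifs searched on both strands were the CArG box of SRF, the CRE of CREB and ATF proteins (TGACGTCA) and its core (TGACG, held 2 times by each CRE), the AP-1 site (TGACTCA), the EGR site (GCGTGGGCG), the NF-kB site, the TATA box (TATAAA) and the RUNX site (TGTGGT). Atf3 held 1 CRE core, Nr4a1 held 4 with 1 NF-kB match, Fosb held 1 core and 1 NF-kB match, and Fosl2 held 2 overlapping NF-kB matches. The window of Egr2 shown held none of them, while those of its other 4 starts each held a CArG box. Counting a gene when any of its listed starts held the motif, the core was found in 19 of 32 members (59.4%), against 23% of the 27025 genes with a promoter. The full CRE was in 4 members (12.5% against 2.03%), namely Btg2, Dusp1, Maff and Ppp1r15a. NF-kB sites were in 8 members (25% against 5.14%), among them Nfkbia, Tnfaip3 and Ier3. A CArG box was in 3, Dusp5, Egr2 and Zfp36 (9.38% against 1.81%). The TATA box was in 8 (25% against 15.7%) and the EGR site in 1, Maff (3.12% against 0.707%). The AP-1 site was in 2 members (6.25% against 5.95%) and the RUNX site in 2 (6.25% against 18.9%). The matches describe letters in these windows only and were not tested.

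In replicate 2 of P2- and of P2+ PreMegEs the members reached levels not seen in any other library. Together they took 1.74% and 1.37% of all counts there, against between 0.0735% and 0.225% in the other 10 libraries. At least 100 CPM was reached by 26 and 22 members in the 2 libraries and by at most 8 in any other. Of the 40 members, 38 had a higher level in both replicate 2 libraries than in each of the other 10, and the other two, Zfp36l1 and Per1, overlapped. Of all 13593 genes reaching 1 CPM in 2 or more libraries, 4.38% lay above and 3.49% below the other 10 in this way. As the members were chosen for this, the contrast is a description. The ratio of the lower of the 2 libraries to the highest of the other 10 had a median of 5.44 over the members measured, and of 0.687 over all genes. Among the 9079 genes with at least 10 CPM in both libraries, the 10 with the largest ratio were all members, as were 16 of the first 20 and 31 of the first 50.

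**Figure D1:**
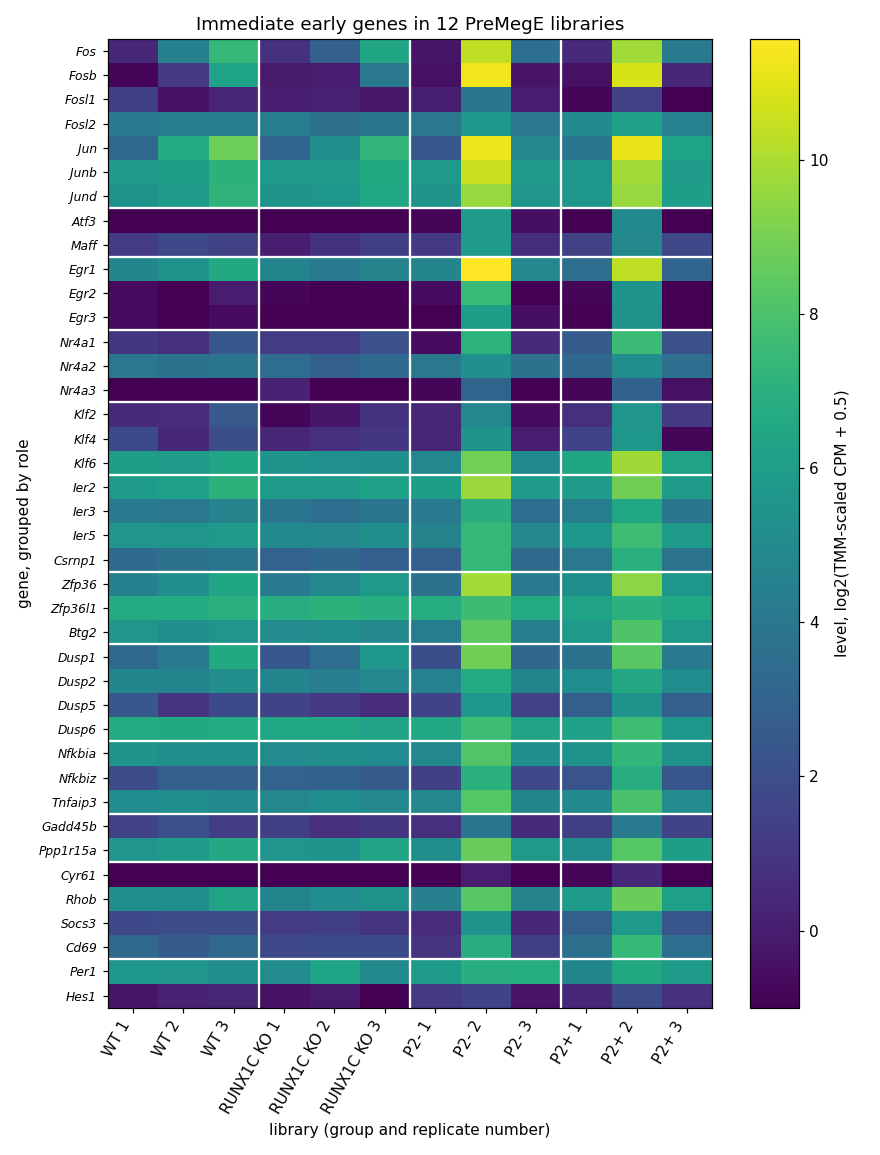
Level of each of the 40 genes (rows, grouped by role) in each of the 12 libraries (columns), as log2 of TMM-scaled CPM plus 0.5. Replicate 2 of P2- and of P2+ form 2 bright columns, and WT replicate 3 and RUNX1C KO replicate 3 are brighter than their groups in Fos, Fosb, Jun and Dusp1.

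The Fos and Jun proteins pair to form AP-1, and all 7 subunits were higher in both replicate 2 libraries. Fos had 1326 CPM in P2- and 903 CPM in P2+ replicate 2, and between 0.318 and 166 CPM in the other 10 libraries (median 9.21). Fosb had 2478 and 1807 CPM, and between 0.0693 and 77.0 CPM in the other 10 libraries (median 0.475), so that the lower of the 2 lay 23.5 times above the next library. Jun had 2395 and 2253 CPM, against between 4.86 and 443 CPM in the other 10 libraries (median 33.0). These 3 genes shared a wide spread outside replicate 2. Junb had 1519 and 895 CPM (otherwise 48.6 to 137 CPM) and Jund had 787 and 801 CPM (otherwise at most 142 CPM). Fosl2 differed less, with 49.9 and 71.9 CPM against at most 30.4 CPM. Fosl1 had 14.8 CPM in P2- replicate 2 and 2.28 CPM in P2+ replicate 2, next to 2.08 CPM in WT replicate 1. Per exonic length, Jun was the most abundant member in both libraries, at 751 and 707 RPKM (CPM per kilobase of exon). In P2- replicate 2 it was followed by Egr1 at 677 and Junb at 660.2 RPKM, and in P2+ replicate 2 by Jund at 480.5 and Junb at 389 RPKM.

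Atf3 is a stress-induced repressor that pairs with Jun proteins. It had 62.1 and 30.5 CPM in replicate 2 of P2- and P2+ and at most 3 counts in any other library, with none in WT, RUNX1C KO and the other P2+ libraries. Maff, a small Maf protein without an activation domain, had 62.2 and 29.95 CPM, and between 0.524 and 2.87 CPM in the other 10 libraries (median 1.90). The Egr proteins are zinc finger activators. Egr1 had 3037 CPM in P2- replicate 2, the highest level of any member in any library, and 1316 CPM in P2+ replicate 2, against between 8.08 and 98.1 CPM in the other 10 libraries (median 25.5). Egr2 had 175 and 45.5 CPM and no more than 0.510 CPM elsewhere. Egr3 had 64.1 and 44.0 CPM and at most 3 counts elsewhere. Egr2, Egr3 and Atf3 therefore were close to absent from 10 libraries, WT replicate 3 included, and all 3 were higher in the P2- than in the P2+ library of replicate 2.

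The Nr4a genes encode orphan nuclear receptors whose activity follows their amount. Nr4a1 had 138 and 189 CPM, and between 0.159 and 5.70 CPM in the other 10 libraries (median 1.81). Nr4a3 had 7.68 and 7.04 CPM and at most 0.699 CPM elsewhere. Nr4a2 was present in every library (6.76 to 16.1 CPM outside replicate 2 of P2- and P2+) and reached 39.2 and 35.3 CPM there. Among the Krüppel-like factors, Klf6 went from between 28.3 and 83.5 CPM in the other 10 libraries (median 51.9) to 467 CPM in P2- and 873 CPM in P2+ replicate 2. Klf2 had 28.1 and 46.6 CPM (otherwise 0.0873 to 5.24 CPM) and Klf4 had 45.1 and 49.7 CPM (otherwise 0.0763 to 3.50 CPM). All 3 of these factors were higher in P2+ than in P2- replicate 2, the opposite order to that of the Egr genes.

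Of the nuclear proteins named for the early response, Ier2 had 824 and 458 CPM (otherwise 55.0 to 135 CPM) and Csrnp1 165 and 126 CPM (otherwise 6.37 to 15.7 CPM). Ier3 and Ier5 reached 116 and 90.9 CPM and 163 and 203 CPM, 3.83 and 2.66 times the highest of the other 10. Zfp36, which promotes the decay of mRNAs with AU-rich elements, had 896 and 674 CPM, and between 12.2 and 83.0 CPM in the other 10 libraries (median 32.5). Its relative Zfp36l1 overlapped, with 196 and 131 CPM against 75.8 to 133 CPM. Btg2, an antiproliferative protein that acts on mRNA deadenylation, had 344 and 277 CPM (otherwise 19.2 to 56.1 CPM).

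The genes that restrain the response were high in the same libraries as the genes that carry it. Dusp1, a nuclear phosphatase of MAP kinases, had 459 and 328 CPM, and between 3.50 and 100.1 CPM in the other 10 libraries (median 11.7). Dusp2 and Dusp5, also nuclear, reached 105 and 95.7 CPM and 51.6 and 42.7 CPM, 2.61 and 6.29 times the highest of the other 10. Dusp6, a cytoplasmic phosphatase of ERK, was already at 51.6 to 105 CPM in the other libraries and reached 204 and 199 CPM. Nfkbia, which holds NF-kB in the cytoplasm, had 289 and 158 CPM (otherwise 28.6 to 44.5 CPM). Tnfaip3, the ubiquitin-editing protein A20, had 305 and 253 CPM (otherwise 26.0 to 35.6 CPM), and Nfkbiz, a nuclear IkB protein, had 127 and 113 CPM (otherwise 2.15 to 7.51 CPM). Nfkbia and Tnfaip3 thus stayed within 2-fold over the other 10 libraries, in which Fos and Jun did not.

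Of the remaining members, Ppp1r15a, which directs a phosphatase to the translation factor eIF2α, had 405 and 302 CPM (otherwise 36.2 to 96.3 CPM) and Gadd45b had 14.0 and 17.8 CPM (otherwise 0.917 to 3.63 CPM). Rhob, a small GTPase, reached 318 and 426 CPM (otherwise 21.4 to 81.4 CPM). Socs3, an inhibitor of JAK-STAT signalling, had 42.7 and 53.8 CPM (otherwise 0.847 to 6.45 CPM), and Cd69, an early activation antigen of leukocytes, had 113 and 172 CPM (otherwise 1.43 to 11.9 CPM). Rhob, Socs3, Cd69 and Gadd45b were higher in the P2+ library. Hes1, a Notch target, had 2.40 and 3.24 CPM (otherwise 0 to 1.67 CPM), and Per1, of the circadian clock, had 122 and 97.5 CPM and overlapped P2- replicate 3 at 111 CPM. Cyr61, a secreted matrix protein, was at 0.480 and 0.828 CPM and at 0 counts in 9 of the other 10 libraries. Exons of 10 members (Fosl1, Jun, Junb, Jund, Csrnp1, Zfp36, Zfp36l1, Dusp1, Dusp5 and Ppp1r15a) lie under a gene of the opposite strand in the GENCODE vM21 annotation, and as it is not stated whether the strand was used in counting, their values may hold reads of both.

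**Figure D2:**
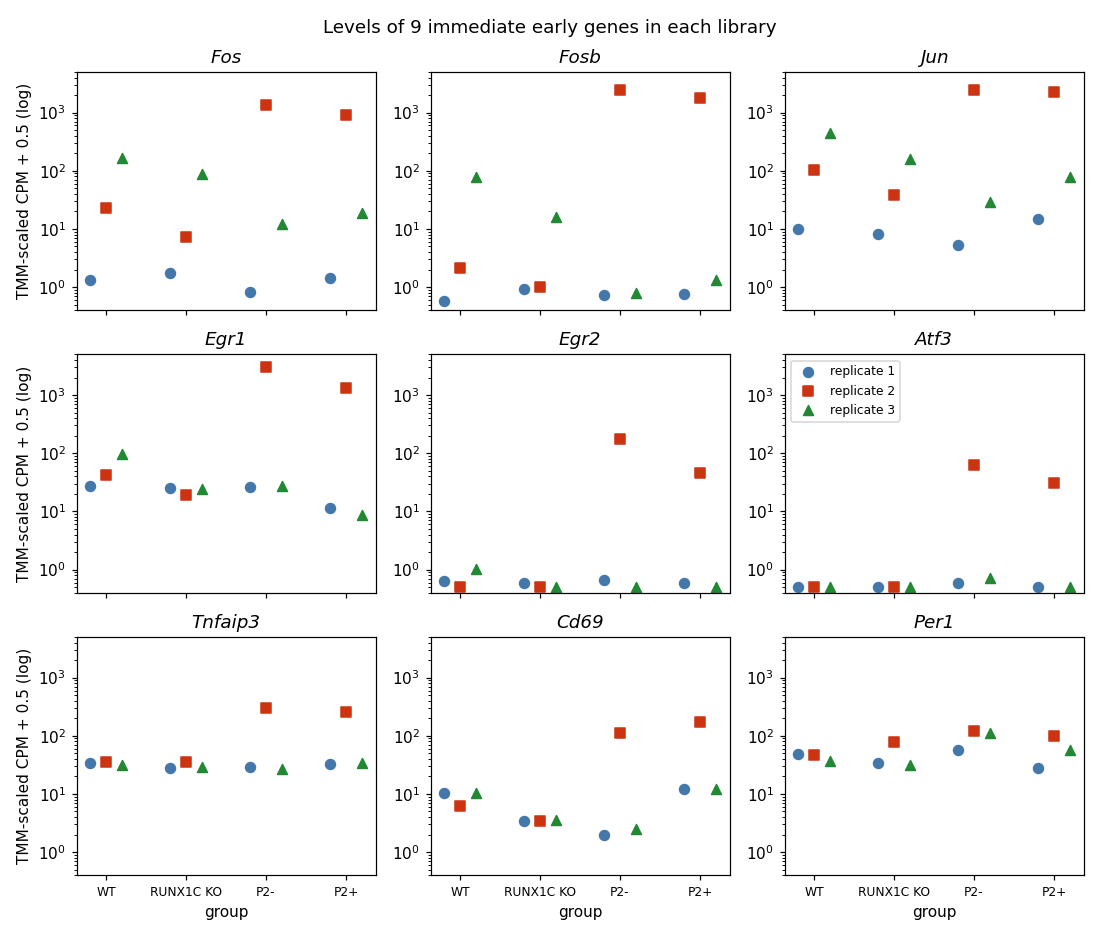
Level (TMM-scaled CPM plus 0.5, log axis) of 9 members in each library by group, with a symbol for each replicate number. Fos, Fosb and Jun spread widely in WT and RUNX1C KO, while Egr2 and Atf3 lie near 0 and Tnfaip3 near 30 CPM in every library other than replicate 2 of P2- and P2+.

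Outside these 2 libraries, members differed in how much they varied between replicates of 1 group. WT replicate 3 was the highest of the other 10 libraries for 17 of the 40 members, against 7.45% of all genes. Fos had 0.832, 22.2 and 166 CPM in WT replicates 1, 2 and 3 and 1.22, 6.84 and 87.5 CPM in RUNX1C KO replicates 1, 2 and 3. Jun had 9.63, 101 and 443 CPM in WT and 7.77, 37.5 and 159 CPM in RUNX1C KO, and Fosb had 0.0693, 1.60 and 77.0 CPM and 0.437, 0.513 and 15.7 CPM. Dusp1 had 9.77, 17.4 and 100.1 CPM in WT and 5.06, 10.69 and 49.3 CPM in RUNX1C KO. In both groups replicate 3 was the highest for all 4 genes, and the groups overlapped. The lowest Fos level was that of replicate 1 in each of the 4 groups, though the labels do not say that a number stands for a shared day or batch. Zfp36l1, Dusp2, Nfkbia and Tnfaip3 varied less than 2-fold over the other 10 libraries, 6 members (Jun, Egr1, Zfp36, Dusp1, Dusp5 and Cd69) varied over 5-fold with at least 1 CPM in each, and the others lay between or were under 1 CPM in some library. The summed neutrophil and monocyte markers were at 300.0, 176 and 192 CPM in WT replicates 1, 2 and 3. Col1a1, a collagen of stromal cells, was at 27.3 CPM in WT replicate 3 and under 1 CPM in the other 11 libraries.

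P2+ was next set against P2- PreMegEs, the question being whether the fraction with an active proximal promoter differs in its early response genes. Libraries with the same number deviated together, so each number was read as a pair. In replicate 1 the level was higher in P2+ for 27 of the 40 members, and in replicate 3 for 29, but in replicate 2 for 13. The median log2 ratio of P2+ to P2- (with 0.5 CPM added) was 0.38 and 0.50 in replicates 1 and 3 and -0.27 in replicate 2, and lay between -0.02 and -0.01 for all genes. In all 3 replicates 10 members were higher in P2+ (33.1% of all genes were) and 7 were lower (35.6% of all genes). The 10 were Fosl2, Jund, Nr4a1, Klf2, Klf6, Ier5, Gadd45b, Rhob, Socs3 and Cd69, and the 7 were Fosl1, Atf3, Egr1, Nr4a2, Zfp36l1, Dusp6 and Per1. Of these, Atf3 had at most 3 counts in either fraction in replicates 1 and 3, the limit that a count of 0 allows, so that its direction there was not measured. Fosl1 was near that limit too, with 0.557 and 0.494 CPM in P2- and 0.0838 and 0 CPM in P2+ replicates 1 and 3.

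Cd69 and Egr1 show the opposite orders. Cd69 had 1.43, 113 and 2.05 CPM in P2- and 11.9, 172 and 11.7 CPM in P2+ replicates 1, 2 and 3, log2 ratios of 2.68, 0.60 and 2.27. Egr1 had 26.2, 3037 and 27.3 CPM in P2- and 10.97, 1316 and 8.08 CPM in P2+, log2 ratios of -1.22, -1.21 and -1.70. Egr1 was thus lower in P2+ at both low and high levels, while the ratio of Cd69 was smallest in replicate 2. Klf6 had log2 ratios of 1.53, 0.90 and 1.25, Socs3 of 2.18, 0.33 and 1.96, and Nr4a1 of 3.23, 0.45 and 1.63. Other members turned. Zfp36, Btg2 and Dusp1 had ratios of 1.61, 1.40 and 1.72 in replicate 1 and 1.38, 1.52 and 1.06 in replicate 3, but -0.41, -0.31 and -0.48 in replicate 2.

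**Figure D3:**
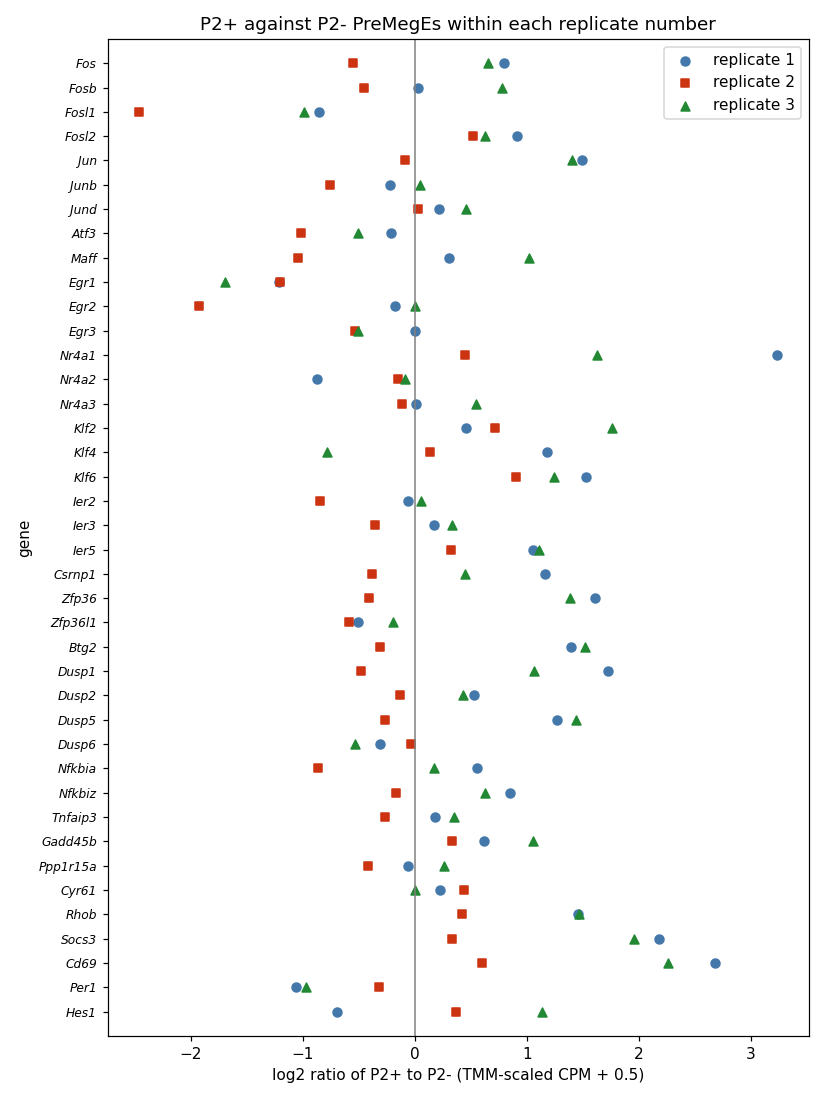
Log2 ratio of P2+ to P2- (TMM-scaled CPM plus 0.5) for each member, with a symbol for each replicate number. Cd69, Socs3, Klf6 and Rhob lie to the right of 0 and Egr1 to the left in all 3 replicates, while Zfp36, Btg2 and Dusp1 are to the right in replicates 1 and 3 only.

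In edgeR's quasi-likelihood test on the 6 libraries, called at an adjusted p under 0.05 (Benjamini-Hochberg) and at least 2-fold, 33 members passed the filter on low counts (1 CPM or more in 3 of them) and 0 were called (9.54% of all genes were called higher and 3.13% lower in P2+). An unadjusted p under 0.05 was found for 0 members and for 5926 of the 12836 genes tested. DESeq2 and edgeR's exact test called 0 members as well, and 1642 and 1721 genes in all. With the replicate number as a block, 4 members were called higher, Klf6, Rhob, Socs3 and Cd69, and 1 lower, Egr1 (10.4% and 3.46% of all genes). Without replicate 2, 10 were higher and 1, again Egr1, was lower (9.92% and 3.26% of all genes), with the filter kept from all 6 libraries. Of the 10, Nr4a1 reached 1 CPM in only 2 of the 4 libraries left. The members were chosen on this contrast too, and nothing is read from these counts. Beside them, 6 of 10 tested neutrophil and monocyte markers, 4 of 7 lymphoid and 3 of 3 mast cell and basophil markers were called higher in P2+ with all 6 libraries, with summed levels of 318 to 437, 215 to 304 and 84.3 to 137 CPM in P2+ against 66.8 to 168, 108 to 144 and 24.5 to 28.3 CPM in P2-. S100a9 and Ngp went the other way and were called lower in P2+ with the replicate block and without replicate 2. Of the endothelial and stromal markers 1 of 2, Kdr, was higher. Cd3e, Cd3g, Cd8a, Cma1 and Tpsb2 were at 0 in both fractions, and the part of such cells was not tested.

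WT PreMegEs were unfractionated and came from mice without the reporter allele. Genotype and sorting therefore change together in the comparisons of P2+ and of P2- with WT, and their parts cannot be told apart. The P2+ and P2- comparisons share the WT libraries, and each contains 1 of the 2 high libraries on which the members were chosen. With those libraries the calls restate the choice, and nothing is read from them. In P2+ against WT 33 members passed the filter, and 5 were called higher and 0 lower (2.16% and 1.68% of all genes). The 5 were Fosl2 (log2 fold change 1.16 ± 0.34 standard error), Nr4a1 (4.69 ± 1.35), Dusp5 (2.60 ± 0.72), Socs3 (2.76 ± 0.80) and Cd69 (2.96 ± 0.91). Socs3 had 6.45, 53.8 and 4.73 CPM in P2+ and 2.91, 3.38 and 3.42 CPM in WT, and Cd69 had 11.9, 172 and 11.7 and 9.77, 5.74 and 9.76 CPM, so that neither overlapped. Nr4a1 had 5.70, 189 and 3.89 and 1.52, 1.18 and 4.95 CPM and overlapped. Without P2+ replicate 2 none of them was called, and 1 member, Egr1, was called lower (2.31% of all genes were called higher and 1.84% lower). Egr1 then had 10.97 and 8.08 CPM in P2+, below the 27.0, 42.4 and 98.1 CPM of WT, with a log2 fold change of -2.56 ± 0.44. These P2+ libraries entered the contrast with P2-, so that this too is a description. With all 6 libraries its log2 fold change was 3.01 ± 1.45. Over the 33 members the median log2 fold change was 1.92 with and -0.16 without that library, beside 0.00 and -0.01 over all genes. Of the markers, 1 of 8 neutrophil and monocyte, 1 of 7 lymphoid and 2 of 3 mast cell and basophil genes were called higher in P2+ than in WT, and 1 of 2 endothelial and stromal genes, Col1a2, was lower. Their part was not tested.

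In P2- against WT most log2 fold changes turned from positive to negative when 1 library was left out, though most members were called in neither fit. With all 6 libraries 33 of 33 members had a positive log2 fold change, with a median of 1.86 (0.01 over all genes), and 1 was called higher and 0 lower (0.572% and 4.1% of all genes). The 1 was Per1, with 57.0, 122 and 111 CPM in P2- and 47.7, 46.3 and 36.0 CPM in WT, which did not overlap (log2 fold change 1.16 ± 0.24). Without P2- replicate 2 the log2 fold change of Per1 was 0.96, under the 2-fold minimum. Without that library 32 of the 33 were negative, with a median of -0.93 (0.00 over all genes), and 0 were called higher and 11 lower (0.611% and 4.28% of all genes). The filter on low counts was kept from all 6 libraries, and Fosb, Klf2 and Klf4 passed it only through the library left out. Both remaining P2- libraries lay below all 3 WT libraries for 21 of 33 members, against 23.3% of all genes. The WT libraries and these P2- libraries were on the low side when the members were chosen, and the P2- libraries entered the contrast with P2+ as well, so that these counts and the values of the genes called are a description.

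The 11 genes came from 6 of the 12 role groups, and none from the EGR, NR4A and IER genes. Cd69 had 1.43 and 2.05 CPM, against 9.77, 5.74 and 9.76 CPM in WT (log2 fold change -2.27 ± 0.34). Klf6 had 28.3 and 31.6 CPM, against 65.4, 59.6 and 83.5 CPM (-1.22 ± 0.14). Btg2 had 19.9 and 19.2 CPM, against 45.9, 36.7 and 46.9 CPM (-1.15 ± 0.14). For these genes the groups did not overlap. The others were Socs3 (-1.78 ± 0.43), Rhob (-1.18 ± 0.29), Zfp36 (-1.63 ± 0.41), Nfkbiz (-1.15 ± 0.37), Dusp1 (-2.81 ± 0.79) and Jun (-3.44 ± 1.06), and Klf4 and Fosb, which reached 1 CPM in only 2 of the 5 libraries and whose calls are not read. Fosb and Jun overlapped between the groups: Fosb had 0.239 and 0.282 CPM in P2- and 0.0693, 1.60 and 77.0 CPM in WT, and Jun had 4.86 and 28.6 CPM in P2- and 9.63, 101 and 443 CPM in WT. Summed lymphoid markers were at 108 to 144 CPM in P2- and 264 to 294 CPM in WT, mostly of Nkg7, and summed neutrophil and monocyte markers at 66.8 to 168 CPM in P2- and 176 to 300.0 CPM in WT, with Cd3e, Cd3g, Cd8a and Gzma at 0 in all P2- libraries. With all 6 libraries 3 of 9 tested neutrophil and monocyte and 3 of 6 lymphoid markers were called lower (4.1% of all genes). Of the mast cell and basophil markers 0 of 2 and of the macrophage markers 0 of 3 were called. Of the endothelial and stromal markers 1 of 2 tested, Col1a2, was called lower with all 6 libraries (summed levels of 2.88 to 11.3 CPM in P2- and 17.0 to 51.1 CPM in WT). Their part in these differences was not tested.

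**Figure D4:**
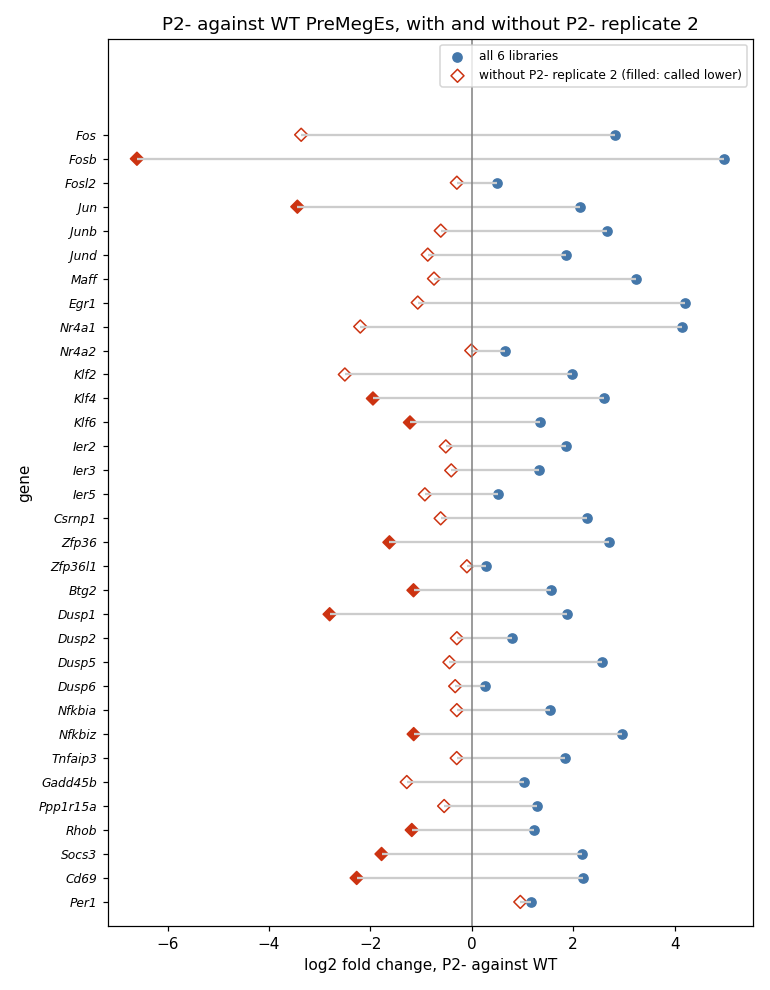
Log2 fold change of P2- against WT for the 33 members tested, from all 6 libraries (circles) and without P2- replicate 2 (diamonds, filled where called lower). All 33 circles lie to the right of 0 and 32 diamonds at or to the left of it, all but that of Per1.

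RUNX1C KO against WT sets side by side only libraries that were on the low side when the members were chosen, and this contrast did not enter the choice. It asks whether loss of the P1 isoform alters these genes in PreMegEs. Of the 33 members tested, 2 were called lower in RUNX1C KO and 0 higher (2.67% and 0.743% of all genes). Cd69 had 2.97, 2.99 and 3.09 CPM in RUNX1C KO and 9.77, 5.74 and 9.76 CPM in WT, a mean of 3.02 ± 0.0663 CPM (SD, n = 3) against 8.43 ± 2.32 CPM (SD, n = 3). The groups did not overlap, and the log2 fold change was -1.49 ± 0.26 (adjusted p = 0.000721, edgeR), called also by DESeq2. Egr1 had 24.8, 18.3 and 24.0 CPM in RUNX1C KO and 27.0, 42.4 and 98.1 CPM in WT. The groups did not overlap, but WT replicate 1 and RUNX1C KO replicate 1 lay close together. The log2 fold change of -1.33 ± 0.30 (adjusted p = 0.00593, edgeR) was -0.63 without WT replicate 3. DESeq2 did not call Egr1 (adjusted p = 0.0926). In a fit of all 12 libraries, whose shared spread takes in replicate 2 of P2- and P2+, neither was called (adjusted p = 0.627 for Cd69 and 0.714 for Egr1, edgeR).

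The other members differed by less or varied more between replicates. Of the 33 members 30 had a negative log2 fold change, with a median of -0.59, beside 0.00 over all genes. With an adjusted p under 0.05 and no minimum fold, 9 members were lower and 0 higher (8.76% and 6.18% of all genes). Apart from Cd69 and Egr1 these were Klf6 (log2 fold change -0.76 ± 0.11), Csrnp1 (-0.77 ± 0.20), Nr4a2 (-0.62 ± 0.19), Ier5 (-0.59 ± 0.12), Ier3 (-0.52 ± 0.17), Btg2 (-0.41 ± 0.11) and Dusp6 (-0.26 ± 0.08). With replicate 3 left out of both groups, only Cd69, Klf6 and Ier5 of these 9 kept an adjusted p under 0.05 (edgeR). Klf6 had 44.2, 40.9 and 38.9 CPM in RUNX1C KO and 65.4, 59.6 and 83.5 CPM in WT, and Ier5 had 31.7, 29.1 and 38.3 CPM and 47.3, 46.1 and 55.1 CPM. Neither overlapped. All 3 RUNX1C KO libraries lay below all 3 WT libraries for 11 of 33 members, against 16.1% of all genes: the 9 genes named, Nfkbia and Socs3.

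Fos, Fosb and Jun, which varied most between replicates, were not called with these 6 libraries, but all 3 were lower past both thresholds when the filter on low counts was left out. Fos had a log2 fold change of -1.01 ± 0.99, Fosb of -2.27 ± 1.15 and Jun of -1.45 ± 0.82. Without WT replicate 3, and with RUNX1C KO replicate 3 kept, all 3 values were positive (1.504, 2.79 and 0.32). With replicate 3 left out of both groups all 3 were negative (-1.49 ± 0.896, -0.735 ± 0.999 and -1.27 ± 0.727) and not called. Fosb had at most 1.60 CPM in the libraries then left. Klf2 had 0.0873, 0.342 and 1.27 CPM in RUNX1C KO and 0.901, 1.01 and 5.24 CPM in WT (adjusted p = 0.0733, edgeR). With replicate 3 left out of both groups and the filter kept from all 6 libraries, 29 of the 33 members were negative, and 1 member, Cd69, was called lower and 0 higher (1.97% and 0.571% of all genes). Its log2 fold change was then -1.39 ± 0.34 (adjusted p = 0.0194, edgeR). Atf3, Egr2, Egr3, Nr4a3, Fosl1, Cyr61 and Hes1 did not pass the filter and were under 3 CPM in all WT and RUNX1C KO libraries, and no fold is given for them. Beside these differences, 3 of 8 tested neutrophil and monocyte markers and 2 of 7 lymphoid markers were called lower in RUNX1C KO, with summed levels of 78.5 to 129 CPM against 176 to 300.0 CPM and of 138 to 147 CPM against 264 to 294 CPM in WT. Of the mast cell and basophil markers 0 of 2 tested were called, while both, Cpa3 and Ms4a2, were higher at an adjusted p under 0.05 with no minimum fold (edgeR), and Cpa3 was called higher without replicate 3 of both groups. Their list summed to 47.3 to 64.2 CPM in RUNX1C KO and 27.9 to 47.9 CPM in WT, ranges that overlap. The lymphoid genes called were Nkg7, with 99.8, 96.6 and 99.5 CPM in RUNX1C KO and 219, 225 and 232 CPM in WT, and Il7r, with 0.349, 0.257 and 0.455 and 2.98, 1.86 and 3.42 CPM. Of the T cell markers Cd3g and Cd8a were at 0 in both groups, and Cd3e was at no more than 0.591 CPM (WT replicate 2). Of the endothelial and stromal markers 1 of 2 tested, Col1a2, was called lower, with summed levels of 6.92 to 10.8 CPM against 17.0 to 51.1 CPM in WT. The part of these cells was not tested.

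**Figure D5:**
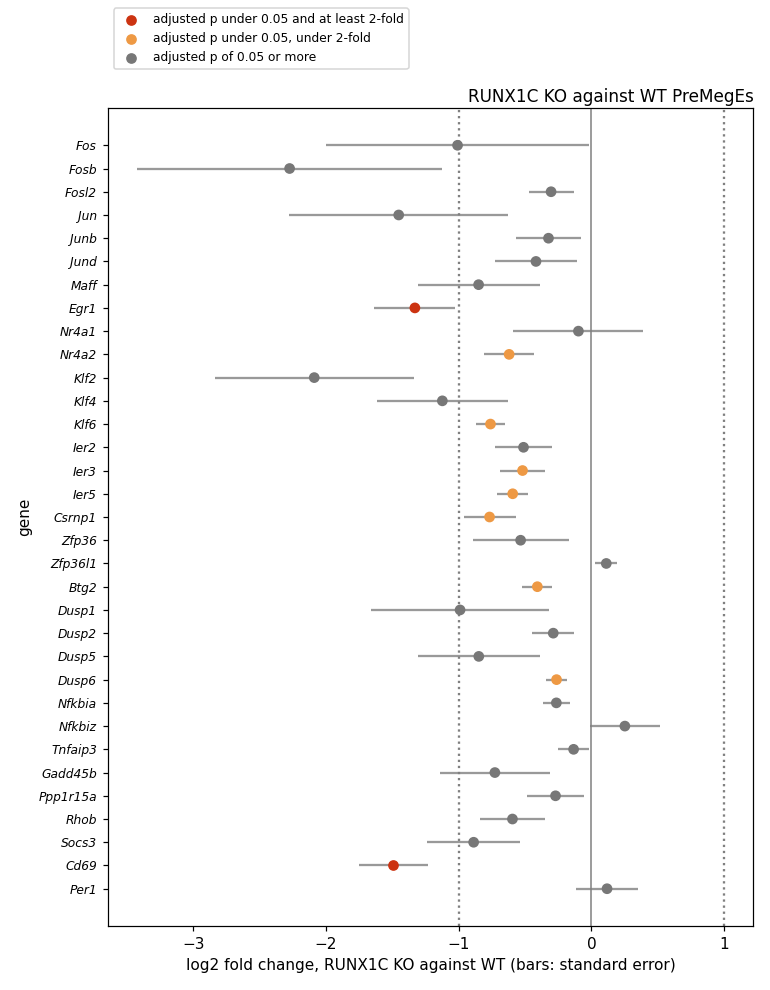
Log2 fold change of RUNX1C KO against WT for the 33 members tested, with the standard error, coloured by call. Cd69 and Egr1 pass both thresholds, 7 genes pass the adjusted p alone, and Fos, Fosb, Jun and Klf2 have wide errors.

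Genes of the pathways around the members were read in the same way. Their lists were also written with earlier results of these data known, so that the counts are a description. Of 39 measured genes in a list of 42 other early response genes, 31 were above the other 10 libraries in both replicate 2 libraries (4.38% of all genes were). Cxcl2, a neutrophil chemokine, had 3.94 and 4.90 CPM in P2- and P2+ replicate 2 and at most 1 count elsewhere, and Egr4 had 8.93 and 2.55 CPM and 0 counts elsewhere. Trib1, a pseudokinase, had 12.8 and 24.2 CPM against at most 1.84, and Plk3, a polo-like kinase, 37.1 and 48.2 CPM against at most 5.90. Myc, named after its values were seen, was not among them, with 642 and 399 CPM inside the range of the others. Of the 10 NF-kB subunits and kinases 5 were above: Rel, with 33.8 and 36.9 CPM against at most 11.8, Relb, Nfkb2, Nfkbie and Rela, of which Rela exceeded the highest other library by 1.05 times. Of these, Nfkb2, Rel and Relb are themselves targets of NF-kB.

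In the lists that follow a smaller share was above. Among SRF, its TCF and its MRTF partners 1 of 6 was above, Srf, with 122 and 114 CPM against at most 91.2. In the p38 and JNK cascade 2 of 8 were above, Map2k3 (1.59 times the highest other) and Mapk8 (1.21 times), and of the CREB factors and coactivators 0 of 7. Of 6 measured other AP-1 family factors, Atf4 was above (529 and 465 CPM against at most 264) and Atf7 below. Heat shock genes held 4 of 12 above, with Hspa1a at 38.03 and 14.2 CPM against at most 7.01 and Dnajb1 at 521 and 269 CPM against at most 202, besides Dnaja1 and Bag3, and 1 below, Hmox1. Of 8 measured unfolded protein response genes 2 were above, Dnajb9 and Hspa5, of 9 other clock genes 1, Per2, and of 4 measured other Notch genes 0. In the comparison of P2+ with P2-, Jdp2, Notch1, Nrarp and Rps6ka1, a kinase that ERK activates, were called higher and Spry4, Gadd45a and Asns lower in P2+. With the replicate block, 7 other early response genes were higher instead of 0 (Trib1, Plk2, Spry1, Dusp4, Tnf, Rgs1 and Rgs2), as were Batf2 and Hmox1, Hspa1b was lower, and Notch1 was not called. Against WT, Trib1 and Bhlhe40 were higher and Spry4 and Gadd45a lower in P2+, of which Trib1 and Bhlhe40 were not called without P2+ replicate 2, and Jdp2, Hmox1 and Notch1 were lower in P2-. Without P2- replicate 2 the latter were still called lower, as were Ier5l, Dusp4, Tnf, Rgs1, Rgs2 and Rel (4.28% of all genes were), with the filter kept from all 6 libraries. In RUNX1C KO against WT, 28 of the other early response genes were tested and 2 were called higher, Phlda1 and Dusp10, and 2 lower, Ier5l and Dusp4. Their levels were 7.60, 6.42 and 6.83 CPM in RUNX1C KO and 2.43, 2.70 and 3.57 CPM in WT for Phlda1, and 15.2, 14.7 and 12.6 and 8.18, 5.49 and 6.41 CPM for Dusp10. No gene was called in the SRF, CREB, p38 and JNK, NF-kB, other AP-1, unfolded protein and clock lists by edgeR without the replicate block. Between 0 and 3 genes of each had an unadjusted p under 0.05 (calls by other tools were not counted for lists). Hmox1, which degrades heme, and Notch1 were called lower. With the block 1 clock gene was called higher. At an adjusted p under 0.05 with no minimum fold (edgeR), 3 of 6 SRF, TCF and MRTF genes were lower (8.76% of all genes). So were 1 of 10 NF-kB and 1 of 9 clock genes, while 1 clock, 1 p38 and JNK and 1 unfolded protein gene were higher (6.18% of all genes).

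Outside the members and lists, the 15 genes with the largest ratio had between 2.08 and 7.86 times the highest of the other 10 in both replicate 2 libraries. Cdkn1a, the cell cycle inhibitor p21, led with 63.9 and 59.1 CPM against at most 7.52 CPM. It was followed by Sik1, a kinase that restrains CREB coactivators (111 and 117 CPM against at most 18.8), Nfkbid, a nuclear IkB protein, and Zc3h12a, an RNase that degrades cytokine mRNAs. The others were Zbtb10, Skil, Tiparp, Ahnak, Gm20645, Smad7, Tnfrsf12a, Rrad, Btg3, Sertad1 and Irf2bpl, of which Skil and Smad7 restrain TGF-beta signalling. Genes below the other 10 differed less once Xist was set aside: Med18, Zfp866, Smug1 and Zfp229 were between 1.40 and 1.58 times lower.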

How the data were processed

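Poly(A) RNA of 12 PreMegE libraries (3 per group, 3 mice pooled per library) was sequenced as paired ends. According to the methods and labels, the authors aligned reads with Bowtie2 to mm10 and deposited raw read counts per Ensembl gene from featureCounts. Whether counting used strand, and how multi-mapped reads were treated, is not given in the sources used here. The 40 genes and all pathway and marker lists were chosen with earlier results of these data known.

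From the deposited counts, levels were computed as TMM-scaled CPM. Comparisons used edgeR 4.0.16 in R 4.3.3 (quasi-likelihood F test over the genes that reached 1 CPM in 3 or more libraries of the 6 in a comparison), Benjamini-Hochberg adjustment over all genes tested, and a call at an adjusted p under 0.05 and at least 2-fold. Ratios used a pseudocount of 0.5 CPM. The script was tested on simulated counts. Total counts were 10726098 to 14445026 per library, so that 3 counts came to 0.207 to 0.288 CPM. RPKM were computed from CPM and exonic lengths of GENCODE vM21. Same-numbered P2+ and P2- libraries deviated together (correlation of deviations from the group means 0.402, 0.590 and 0.432 for replicates 1, 2 and 3), so that these numbers were read as pairs. The pairing comes from this check, as the labels do not state it. Members were all accounted for, pathway genes were named where called or above in both replicate 2 libraries (up to 4 a list by size, all of them for NF-kB), with the ERK cascade list as a whole not reported here, and outside the lists the 15 genes with the largest ratio and the 5 lowest were named. Alternatives were DESeq2 1.42.0, edgeR's exact test, other scalings, no filter on low counts, no minimum fold, all 12 libraries in 1 fit, a replicate block and leaving out each library.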

Additional observations from a re-analysis of the deposited data

How the results depend on the processing

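The counts of members called depended on the test and on single libraries, while the description of replicate 2 did not (38 members above the other 10 without TMM, and 39 against the 4 other reporter libraries). For P2+ against P2-, the replicate block gave 4 members higher and 1 lower, leaving out 1 library gave 0 to 13 higher and 0 to 2 lower, and 4762 genes of all were called without a minimum fold. For P2+ against WT, members higher numbered 1 with DESeq2, 12 with the exact test, 26 without the filter on low counts, 0 with all 12 libraries in 1 fit, 0 with the replicate block (516, 584, 611, 499 and 468 genes of all called in either direction, 497 in the report) and 0 to 14 with 1 library left out (0 to 1 lower), and 2138 genes were called without a minimum fold. For P2- against WT, members higher numbered 3 with the exact test, 22 without the filter, 0 with all 12 libraries (705, 741 and 646 genes of all, 597 in the report) and 0 to 7 with 1 library left out (0 to 11 lower), and 2101 genes were called without a minimum fold. For RUNX1C KO against WT, members lower numbered 1 with DESeq2, 6 without the filter, 9 without a minimum fold (1910 genes of all), 0 with all 12 libraries, 6 with the replicate block (421, 522, 355 and 449 genes of all with DESeq2, without the filter, with all 12 libraries and with the block, 436 in the report) and 1 to 5 with 1 library left out. Fos, Fosb and Jun were among the members lower in RUNX1C KO without the filter and with the block (adjusted p = 8.31e-05, 7.26e-05 and 1.90e-07 with the block, edgeR), and Fosb and Jun also without WT replicate 1. The cause was not tested.

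Log2 fold changes that turned sign did so when 1 library was left out or under the block. With 1 library left out, Egr1 in P2+ against WT ran from -2.56 to 3.70. In P2- against WT the ranges were -6.61 to 10.0 for Fosb, -3.44 to 3.88 for Jun, -1.95 to 3.19 for Klf4, -1.22 to 1.84 for Klf6, -1.63 to 3.39 for Zfp36, -1.15 to 2.08 for Btg2, -2.81 to 3.54 for Dusp1, -1.15 to 3.54 for Nfkbiz, -1.18 to 1.73 for Rhob, -1.78 to 2.75 for Socs3 and -2.27 to 2.76 for Cd69, the lowest each without P2- replicate 2, where Fosb and Klf4 reached 1 CPM in only 2 of the 5 libraries and their values are not read. In RUNX1C KO against WT they were -3.97 to 1.504 for Fos, -5.77 to 2.79 for Fosb and -3.03 to 0.32 for Jun. With the replicate block, Egr1 was at -0.43 in P2+ against WT, and Jun at -0.47, Cd69 at -0.11, Klf6 at -0.015 and Dusp1 at -0.32 in P2- against WT. In the 3 comparisons with WT same-numbered libraries did not all deviate together (correlations of -0.0980 to 0.186), and not every library was closest to its own number, so the block there rests on a number only. Leaving replicate 3 out of both RUNX1C KO and WT was chosen after seeing the data, and gave 1 member lower. A count of 0 allowed up to 0.207 to 0.288 CPM per library.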
